A study of Rattus norvegicus with 10 samples.

Results

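The GDNF family ligands and the receptors that carry their signal were followed in the trigeminal ganglion (TG) of the oral ulcerative mucositis (OUM) rat model. The members were chosen by name and not by their values: the ligand genes *Gdnf*, *Nrtn* (neurturin) and *Artn* (artemin), the signalling receptor gene *Ret*, and the co-receptor genes *Gfra1*, *Gfra2*, *Gfra3* and *Gfra4*, which are 8 of the 15507 genes with a symbol on the array. All 8 were present, with 12 probes in all. In the OUM group (n = 5), anesthetized male Wistar rats, 8 weeks of age at induction, had filter paper with 50% acetic acid held for 30 s against the mucosa in front of the lower incisors, and TGs were taken on day 2. In the naive group (n = 5), age-matched male Wistar rats had anesthesia alone, and their TGs were taken at the matching time. Each rat gave whole ganglia of both sides and 1 single-colour array, so n counts rats, and neurons that do not supply the treated mucosa were part of every sample.

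The family signals through a shared kinase. Each ligand is a secreted dimer that binds its preferred GFRα co-receptor on the cell surface (GDNF binds GFRα1, neurturin GFRα2, artemin GFRα3 and persephin GFRα4), and the ligand with its co-receptor then brings the receptor tyrosine kinase RET together and activates it. In sensory ganglia of rodents, RET and GFRα2 are typical of non-peptidergic nociceptors and of some large mechanoreceptors, whereas GFRα3 is typical of peptidergic nociceptors that also carry the heat-gated channel TRPV1. The ligands come largely from the skin, mucosa, vessels and glia that these neurons supply, and they maintain the neurons and alter their excitability.

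In the TG of OUM rats none of the members differed from naive rats after adjustment over all features, and *Artn* was the member with the largest difference. Values below are log2 signals relative to the 75th percentile of the same array, and a log2 fold change is the OUM mean minus the naive mean. Of the 8 members, 6 were tested because every array of at least 1 group read them well above background, and *Gdnf* and *Gfra4* did not meet this. No tested member had an adjusted p under 0.05 (0 of 6, limma with Benjamini-Hochberg adjustment), where 0.0102% of all 19654 features did. At an unadjusted p under 0.05, 1 of 6 members (*Artn*) was higher in OUM and 0 were lower, where 3.9% of all features were higher and 5.02% were lower. In none of the 6 did the 5 OUM arrays lie apart from the 5 naive arrays, a separation seen in 1.82% of all features. The log2 fold changes of the 6 members ran between 0.010 and 0.36 with a median of 0.055, while the median over all features was -0.011. All 6 were above 0, but a fold change of either sign was also common in the series, with 8957 of 19654 features above 0. Since whole ganglia were measured, a change in the number of cells of a type and a change in RNA per cell cannot be told apart in any of these values.

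**Figure D1:**
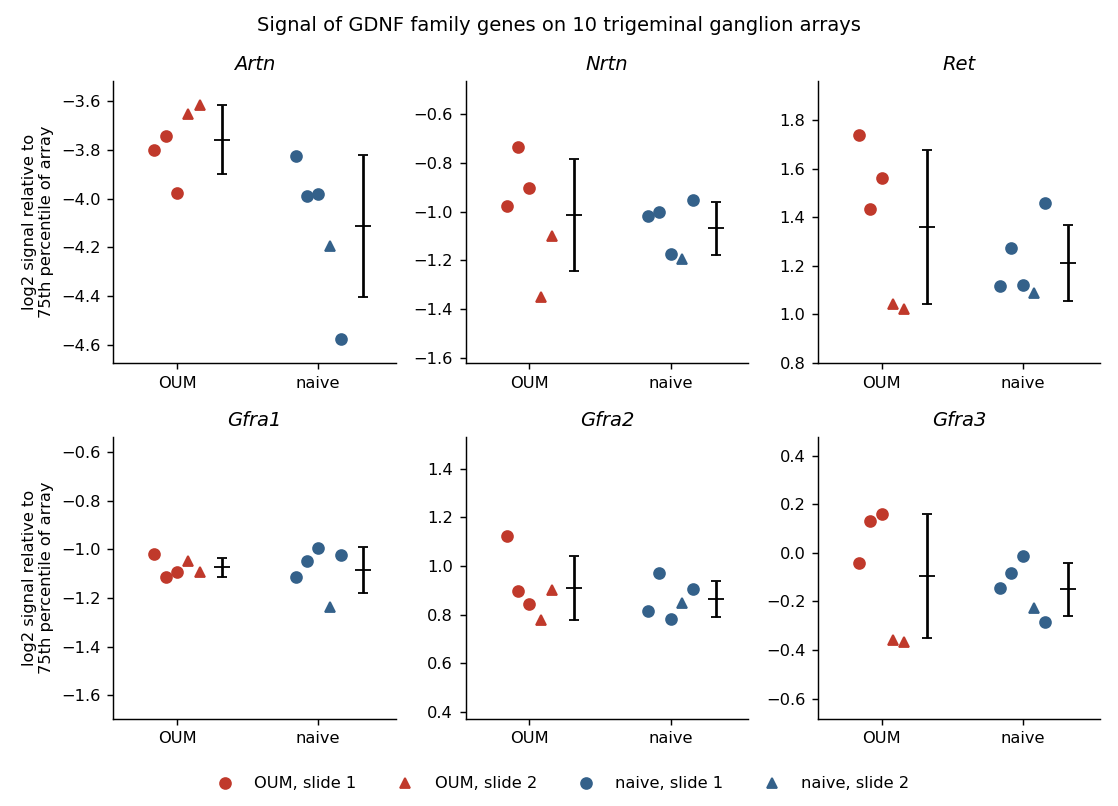
Log2 signal relative to the 75th percentile of the array (vertical axes, all spanning the same width) of the 6 tested members on the 5 OUM and 5 naive arrays; circles are slide 1, triangles slide 2, and black bars are mean ± SD. The OUM and naive arrays overlap for every gene, and the *Ret* and *Gfra3* signals of the OUM arrays on slide 2 lie below those of the OUM arrays on slide 1.

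The 10 arrays were spread over slides that each held several arrays. Slide 1 held OUM 1, 2 and 3 and naive 1, 2, 3 and 5, and slide 2 held OUM 4 and 5 and naive 4. With the group in the fit, 13% of all features differed between the slides at an adjusted p under 0.05 (limma). The effect of OUM also differed between the slides at an unadjusted p under 0.05 for 11% of features. Sensory neuron markers were present, in that 10 of 11 listed were tested, and all 10 were well above background on all 10 arrays. Their summed signal was 8.56 to 8.84 on the OUM arrays and 8.66 to 8.78 on the naive arrays. Hormone genes of the pituitary, which lies beside the TG, varied far more: the summed signal of 5 tested genes of 7 listed was 0.075 to 4.69 on OUM arrays and -1.62 to 4.41 on naive arrays, with the highest values on OUM 1, OUM 2 and naive 1. Outside the Schwann cell list, described with *Artn*, 2 marker genes had an unadjusted p under 0.05: the satellite glia marker *Fabp7* at -0.31 (adjusted p = 0.495, limma) and the endothelial marker *Vwf* at 0.18 (adjusted p = 0.540, limma). At that unadjusted threshold 3.9% of all features were higher in OUM and 5.02% were lower. The part of the marker genes in the results was not tested.

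The start regions of *Artn*, *Gfra3* and *Ret* are shown because these genes encode the ligand with the largest difference, its co-receptor and the kinase they share. Each sequence is the 250 bases before the annotated start of the gene, 5′ to 3′ on the coding strand, from RefSeq (build GRCr8). Capitals mark GC boxes, here the letters GGGCGG on either strand, and overlapping matches were each counted.
*Artn*, chr5:136753458-136753707, minus strand: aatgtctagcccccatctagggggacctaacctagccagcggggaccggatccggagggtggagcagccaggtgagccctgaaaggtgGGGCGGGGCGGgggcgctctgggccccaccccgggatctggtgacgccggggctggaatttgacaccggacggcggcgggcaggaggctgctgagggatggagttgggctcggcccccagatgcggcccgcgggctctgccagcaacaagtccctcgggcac
*Gfra3*, chr18:26600226-26600475, minus strand: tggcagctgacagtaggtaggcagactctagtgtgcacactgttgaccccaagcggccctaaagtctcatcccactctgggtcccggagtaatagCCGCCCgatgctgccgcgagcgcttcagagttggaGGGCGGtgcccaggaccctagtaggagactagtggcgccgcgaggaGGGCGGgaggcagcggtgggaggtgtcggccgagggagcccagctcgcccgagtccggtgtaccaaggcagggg
*Ret*, chr4:153040557-153040806, minus strand: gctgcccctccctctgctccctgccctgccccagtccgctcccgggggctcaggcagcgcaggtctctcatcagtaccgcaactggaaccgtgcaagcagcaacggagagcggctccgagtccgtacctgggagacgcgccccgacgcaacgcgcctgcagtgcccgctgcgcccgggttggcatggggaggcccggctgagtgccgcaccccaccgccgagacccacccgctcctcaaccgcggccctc
The *Artn* window held 2 GC boxes that overlap by 1 base, the *Gfra3* window held 3 separate ones, and the *Ret* window held 0 although 72.8% of its bases were G or C. Of 27457 RefSeq windows of the same length, 32.4% held at least 1 GC box. A sequence was found for 7 of the 8 members, the exception being *Gfra2*, and of the remaining windows *Gfra1* held 1 GC box and *Nrtn*, *Gdnf* and *Gfra4* held 0. A RUNX core (TGTGGT on either strand), the motif of the transcription factors that direct nociceptor subtypes, was found in the *Gfra4* window alone among the 7, and in 14.1% of all windows. These matches describe letters and not bound sites.

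*Artn* encodes artemin, the ligand of GFRα3-bearing nociceptors. Its signal was -3.80, -3.74, -3.98, -3.65 and -3.62 on the OUM arrays 1 to 5, against -3.82, -3.99, -3.98, -4.20 and -4.58 on the naive arrays 1 to 5. All OUM arrays but OUM 3 were above every naive array, and naive 5 was the lowest of all 10. The lowest arrays, naive 4 and naive 5, also had the smallest shares of spots well above background, 75.1% and 77.0%. The other arrays had 78.1% to 80.7%, with the highest shares on OUM 4 and OUM 5, where *Artn* was highest. Whether this array difference contributes to the *Artn* values was not tested. The means were -3.76 ± 0.14 in OUM rats and -4.11 ± 0.29 in naive rats (SD, n = 5 each). The log2 fold change was 0.36 (SE 0.13, 95% interval 0.061 to 0.65), or 1.28-fold. The unadjusted p was 0.0229 and the adjusted p 0.513 (limma), so the difference did not pass the test over all features. The exact permutation test over the 10 arrays gave a two-sided p of 0.0159, where the smallest p this design allows is 0.00794. *Artn* was higher in OUM within each slide, by 0.25 on slide 1 (unadjusted p = 0.192, adjusted p = 0.533, limma) and by 0.56 on slide 2. On slide 2 only 1 naive array, naive 4, stands against the OUM arrays, so no naive spread is measured there. With the methods' t-test on the same values *Artn* was not under the unadjusted threshold. Without naive 5 the log2 fold change was 0.24 (unadjusted p = 0.0302, adjusted p = 0.588, limma), and without OUM 5 it was 0.32 (unadjusted p = 0.0529, adjusted p = 0.517, limma). Schwann cell and myelin markers, glia that can supply artemin, had a summed signal of 8.42 to 8.56 on the OUM arrays and 8.41 to 8.62 on the naive arrays over 7 of 7 listed genes, a sum carried mostly by the brightest of them. Gene by gene, 2 of the 7 were higher in OUM at an unadjusted p under 0.05 and 0 were lower. Over all features 3.9% were higher and 5.02% were lower. *Egr2*, the transcription factor of myelinating Schwann cells, had a log2 fold change of 0.38 (SE 0.12, unadjusted p = 0.00932, adjusted p = 0.491, limma), above that of *Artn*. *Sox10*, a glial identity factor, had 0.17 (SE 0.059, unadjusted p = 0.0154, adjusted p = 0.495, limma). The 7 genes ran from -0.074 to 0.38 with a median of 0.066. After removing group means, *Artn* had an r of 0.23 with the mean log2 signal of this list over the 10 arrays. With the other marker lists its r was -0.19 to 0.27. The part of the Schwann cell list in the *Artn* difference was not tested.

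*Nrtn* encodes neurturin, the ligand of GFRα2. Its signal was -0.98, -0.73, -0.90, -1.35 and -1.10 on the OUM arrays 1 to 5, against -1.02, -1.001, -1.17, -1.19 and -0.95 on the naive arrays 1 to 5. The OUM arrays held both the 2 highest values and the lowest, so the naive range lay wholly inside that of OUM. The mean was -1.01 ± 0.23 in OUM rats and -1.07 ± 0.11 in naive rats (SD, n = 5 each), a log2 fold change of 0.054 (SE 0.11, 95% interval -0.18 to 0.29, adjusted p = 0.910, limma). It was 0.16 on slide 1 and -0.032 on slide 2.

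*Gdnf*, the founding ligand, was not well above background on any of the 10 arrays. Its spots read -8.11, -7.95, -7.98, -8.79 and -8.10 on the OUM arrays 1 to 5, against -7.15, -7.82, -8.73, -8.61 and -8.90 on the naive arrays 1 to 5. The lowest signal of any probe well above background was -8.32 to -8.09 on OUM arrays and -8.27 to -7.33 on naive arrays, a range that overlaps the *Gdnf* readings. No fold change is given, and a difference in *Gdnf* was not detectable at this signal. The ligand gene outside the chosen members, *Pspn* (persephin), was measured and had a log2 fold change of 0.11 (SE 0.15, adjusted p = 0.852, limma), with -0.10 on slide 1 and 0.44 on slide 2.

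*Ret*, the kinase through which all of these ligands signal, had 3 probes. On the first, which has the highest signal and stands for the gene, the values were 1.74, 1.44, 1.56, 1.04 and 1.02 on the OUM arrays 1 to 5, against 1.12, 1.27, 1.12, 1.09 and 1.46 on the naive arrays 1 to 5. OUM 1 and OUM 3 were above every naive array, and OUM 4 and OUM 5 were below every naive array. The mean was 1.36 ± 0.32 in OUM rats and 1.21 ± 0.16 in naive rats (SD, n = 5 each), a log2 fold change of 0.15 (SE 0.14, 95% interval -0.17 to 0.47, adjusted p = 0.790, limma). The spread within OUM followed the slide. On slide 1 the OUM mean was 1.58 and the naive mean 1.24, a difference of 0.34 (unadjusted p = 0.0167, adjusted p = 0.296, limma). On slide 2 the OUM mean was 1.03 and the single naive array read 1.09, a difference of -0.056. The difference between these effects was -0.39 (SE 0.19, unadjusted p = 0.0737, adjusted p = 0.502, limma). Across both groups *Ret* was lower on slide 2 than on slide 1 by a log2 difference of -0.39 (SE 0.11, adjusted p = 0.0470, limma), and it was the only tested member past the threshold for the slide. Blocking on slide gave an OUM difference of 0.23 (unadjusted p = 0.0496, adjusted p = 0.424, limma). With no block, the log2 fold change was 0.054 without OUM 1 and -0.027 without the 3 arrays highest in pituitary genes. Those 3 arrays are all on slide 1, so leaving them out also changed the slide balance of the groups.

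The second *Ret* probe, designed against another transcript of the gene, had a log2 fold change of 0.071 (SE 0.076, adjusted p = 0.812, limma), and the third, with 1 spot per array, had 0.048 (SE 0.082, adjusted p = 0.895, limma). Each of the 3 read its highest value on OUM 1. After removing the group means, the first probe correlated with the second at r = 0.71 and with the third at r = 0.61, and the second with the third at r = 0.52. These are descriptions over 10 arrays that share their slides. On slide 2 the second probe differed between the groups by -0.20 and the third by 0.0052.

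**Figure D2:**
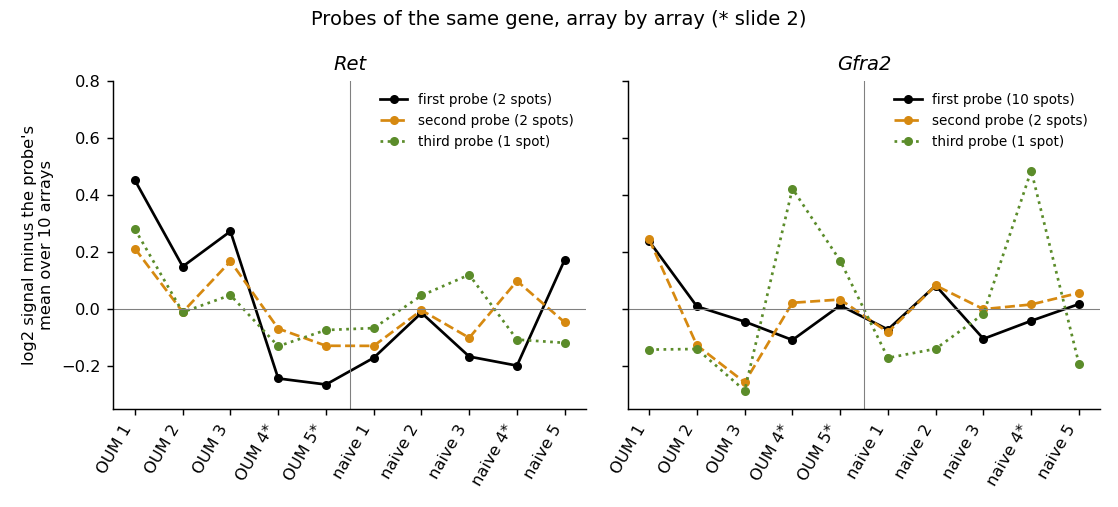
Log2 signal of each probe minus its mean over the 10 arrays (vertical axis) for the 3 *Ret* probes and the 3 *Gfra2* probes, with OUM arrays left of the line, naive arrays right of it, and slide 2 marked by asterisks. The *Ret* probes peak together on OUM 1, while the third *Gfra2* probe is high on the slide 2 arrays OUM 4, OUM 5 and naive 4.

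*Gfra1*, the co-receptor gene of GDNF, was the steadiest member. Its signal was -1.02, -1.11, -1.09, -1.05 and -1.10 on the OUM arrays 1 to 5, against -1.11, -1.05, -0.997, -1.24 and -1.02 on the naive arrays 1 to 5. The 10 arrays spanned 0.24 log2 units, and the naive arrays held both the highest and the lowest value. The log2 fold change was 0.010 (SE 0.052, adjusted p = 0.969, limma), with a 95% interval of -0.10 to 0.13 over all 10 arrays. It was -0.029 on slide 1 and 0.16 on slide 2, and without naive 4 it was -0.028. The effects on the slides differed by 0.19, and the slide 2 value, with 1 naive array, lay outside that interval.

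*Gfra2*, the co-receptor gene of neurturin, also had 3 probes. The first, with 10 spots per array, read 1.13, 0.90, 0.84, 0.78 and 0.90 on the OUM arrays 1 to 5, against 0.82, 0.97, 0.78, 0.85 and 0.91 on the naive arrays 1 to 5. OUM 1 was the highest of the 10 arrays, and the other OUM arrays lay close to the naive range. The log2 fold change was 0.045 (SE 0.067, 95% interval -0.11 to 0.19, adjusted p = 0.879, limma), and without OUM 1 it was -0.0091. The second probe had -0.032 (SE 0.085, adjusted p = 0.933, limma) and the third 0.012 (SE 0.16, adjusted p = 0.989, limma). The third probe did not follow the first (r = -0.36 within groups, 10 arrays), whereas the second did (r = 0.69). The third read -3.17 on OUM 4, -3.42 on OUM 5 and -3.10 on naive 4, the slide 2 arrays, and between -3.88 and -3.61 on the 7 arrays of slide 1.

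*Gfra3*, the co-receptor gene of artemin, read -0.043, 0.13, 0.16, -0.36 and -0.37 on the OUM arrays 1 to 5, against -0.15, -0.082, -0.012, -0.23 and -0.28 on the naive arrays 1 to 5. As with *Ret*, OUM arrays took both ends of the range: OUM 2 and OUM 3 were above every naive array, and OUM 4 and OUM 5 were below. The mean was -0.095 ± 0.26 in OUM rats and -0.15 ± 0.11 in naive rats (SD, n = 5 each), a log2 fold change of 0.055 (SE 0.12, 95% interval -0.20 to 0.31, adjusted p = 0.915, limma). It was 0.21 on slide 1 (unadjusted p = 0.0340, adjusted p = 0.337, limma) and -0.13 on slide 2. The difference of these effects was -0.35 (SE 0.14, unadjusted p = 0.0415, adjusted p = 0.430, limma), to be read beside the 11% of features that reach such a p. The slide difference itself was -0.31 (SE 0.088, adjusted p = 0.0507, limma), and that of *Nrtn* was -0.28 (SE 0.083, adjusted p = 0.0621, limma). For *Artn* it was 0.083 (SE 0.15, adjusted p = 0.777, limma). Without OUM 3 the log2 fold change of *Gfra3* was -0.0091.

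**Figure D3:**
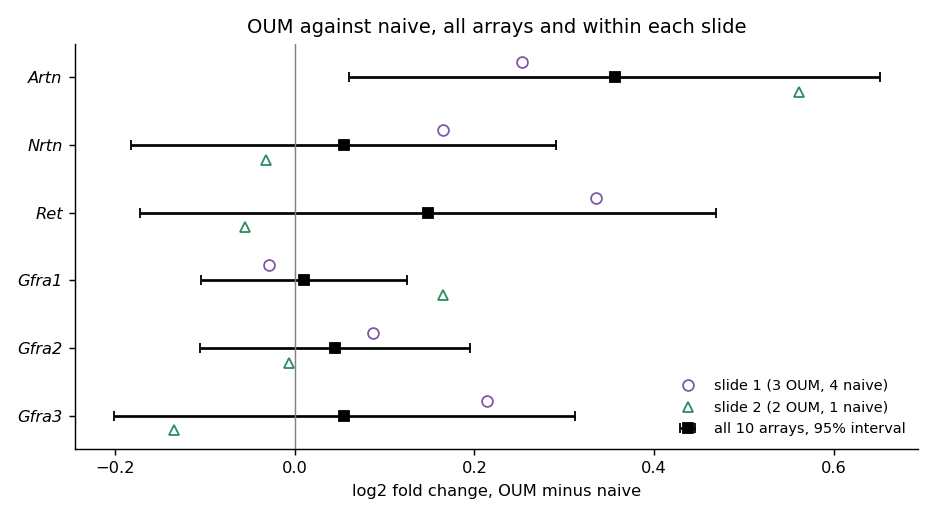
Log2 fold change, OUM minus naive, of the 6 tested members (horizontal axis), over all 10 arrays with the 95% interval of the limma fit (squares), and as the difference of group means on slide 1 (circles) and on slide 2 (triangles). *Artn* lies above 0 on both slides, and *Ret*, *Gfra3*, *Nrtn* and *Gfra2* lie above 0 on slide 1 and below 0 on slide 2.

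*Gfra4*, the co-receptor gene of persephin, was well above background on 1 OUM array (OUM 5) and 2 naive arrays (naive 2 and naive 3). It read -7.39, -7.39, -7.49, -7.15 and -7.00 on the OUM arrays 1 to 5, against -7.95, -6.65, -6.96, -7.38 and -7.39 on the naive arrays 1 to 5. The naive arrays held the highest and the lowest value. No fold change is given.

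Members were next compared with each other across arrays, over 15 pairs of the 6 tested genes. *Ret* and *Nrtn* had a Pearson r of 0.69 over the 10 arrays (permutation p = 0.0222, adjusted over the 15 pairs 0.173) and a Spearman rho of 0.79 (permutation p = 0.00840, adjusted 0.126). Without OUM 4 and OUM 2, the arrays farthest from the median of *Nrtn*, r was 0.76, and within slide 1 it was 0.51 over 7 arrays. The permutations exchanged arrays across slides and groups, and slide 2 minus slide 1 was -0.39 for *Ret* and -0.28 for *Nrtn*. After removing group means, skeletal muscle markers had an r of -0.63 with *Ret* and -0.51 with *Nrtn*. The other marker lists had -0.20 to 0.42 with *Nrtn*. No test was made of slide or tissue make-up in this pair. *Ret* and *Gfra2* had an r of 0.69 (permutation p = 0.0346, adjusted 0.173) and a rho of 0.48 (permutation p = 0.168, adjusted 0.504). Without OUM 1 and OUM 3 this r was 0.56, and within slide 1 it was 0.73 over 7 arrays. Some marker levels moved with both genes of this pair, and others with 1 of them. After removing group means, the mean log2 signal of the sensory neuron markers had an r of 0.71 with *Ret* and 0.70 with *Gfra2*. That of the endothelial markers had -0.67 with *Ret* and -0.67 with *Gfra2*, and that of the fibroblast and meningeal markers -0.62 with *Ret* and -0.59 with *Gfra2*. Satellite glia markers had -0.19 with *Ret* and -0.68 with *Gfra2*. Skeletal muscle markers had -0.63 with *Ret* and -0.18 with *Gfra2*. The remaining lists had between -0.37 and 0.19 with either gene. These are descriptions over 10 arrays that share slides and scaling. OUM 1, where *Ret* and *Gfra2* were highest, had the highest summed sensory neuron signal (8.84) and the lowest summed fibroblast signal (6.63) of the 10 arrays, and the part of tissue make-up in the pair was not tested. The lowest pair was *Artn* and *Ret*, with an r of -0.23 (permutation p = 0.522, adjusted 0.971) and a rho of -0.33 (permutation p = 0.351, adjusted 0.751). Without naive 5 and naive 4 it was -0.32, and within slide 1 it was -0.024 over 7 arrays. After removing the group means, the r of these pairs was 0.68 for *Ret* and *Nrtn*, 0.67 for *Ret* and *Gfra2*, and -0.60 for *Artn* and *Ret*. No pair passed the adjustment.

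**Figure D4:**
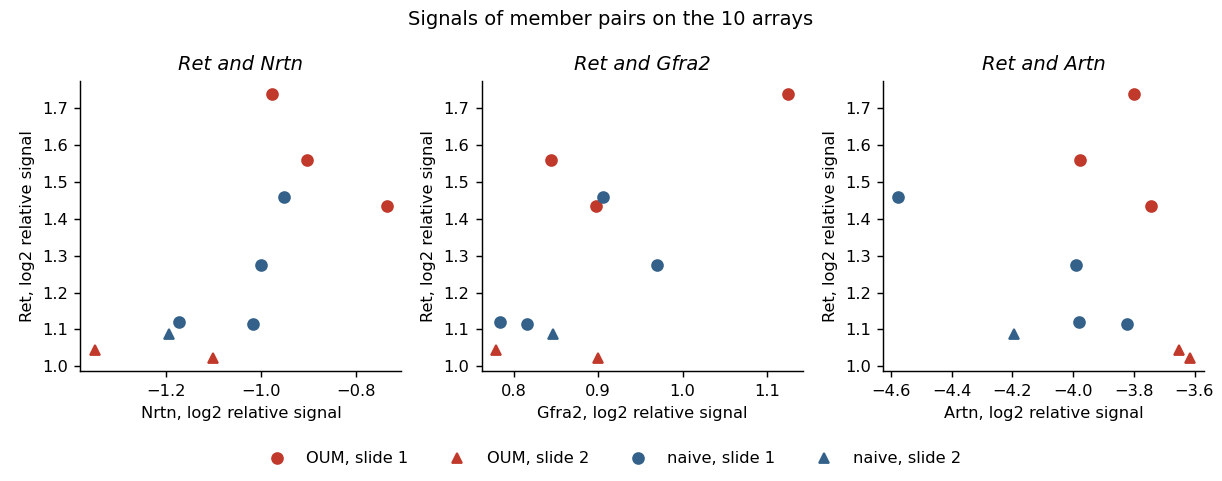
Log2 relative signal of *Ret* (vertical axes) against that of *Nrtn*, *Gfra2* and *Artn* (horizontal axes) on the 10 arrays, with OUM in red, naive in blue, circles for slide 1 and triangles for slide 2. The slide 2 arrays have the 3 lowest *Ret* signals, 1.02 to 1.09, and the OUM arrays among them have the highest *Artn* signals.

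The genes whose signal most resembled each member after removing group means are given as a description over 10 arrays that share slides and scaling. For *Ret* they were *Faim2*, a neuronal inhibitor of Fas-driven cell death (r = 0.98), *Capn2*, a catalytic subunit of calpain (r = 0.97), and *Slc25a38*, a mitochondrial glycine carrier (r = 0.97). For *Gfra3* they were *Slc35b1* (r = 0.98), *Sytl3* (r = 0.95) and *Mbd2*, a reader of methylated DNA (r = 0.95). For *Gfra2* they were *Adora2a*, an adenosine receptor (r = 0.97), *Kat7*, a histone acetyltransferase (r = 0.94), and *Lhfpl5* (r = 0.92). For *Nrtn* they were *Thap11* (r = 0.93), *Rhobtb1* (r = 0.93) and *Cacna1s*, the calcium channel subunit of skeletal muscle (r = 0.92). For *Artn* they were *Rxfp3*, a relaxin family receptor (r = 0.94), *Dpep2*, a dipeptidase (r = 0.93), and *Plk1*, a mitotic kinase (r = 0.92). For *Gfra1* they were *Zc3h12a*, an RNase that degrades inflammatory mRNAs (r = 0.96), *Zfp54* (r = 0.92) and *Pcca*, a subunit of propionyl-CoA carboxylase (r = 0.92). No member was among the 3 genes most like another member. These genes had the highest r in a search over up to 11986 tested genes with a symbol. The r that such a search finds among unrelated genes was not computed, so the values only rank the genes. Some of them varied little, with an SD over the 10 arrays of 0.043 for *Slc35b1* and 0.048 for *Capn2*, against 0.97 for *Rxfp3*.

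Around the family, 64 genes of the RET pathway and of RET-bearing neurons were listed, 54 were on the array with a symbol and 51 were tested. None had an adjusted p under 0.05 (limma). At an unadjusted p under 0.05, 2 of the 51 were higher in OUM and 0 were lower. Over all features 3.9% were higher and 5.02% were lower, so the listed genes were not called more often. The median log2 fold change of the 51 was -0.013, close to that of all features. Of the 2 other family genes tested, *Gdf15*, the ligand of GFRAL, had a log2 fold change of 0.24 (SE 0.20, adjusted p = 0.749, limma).

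Among 4 alternative receptors and sorting proteins, all tested, 1 passed the unadjusted threshold. *Sort1*, a sorting receptor for neurotrophic factors, had a log2 fold change of 0.18 (SE 0.071, unadjusted p = 0.0290, adjusted p = 0.518, limma; exact permutation p = 0.0397). Among 7 tested inhibitors of 11 listed, *Spry4*, a Sprouty feedback inhibitor of receptor tyrosine kinases, had 0.20 (SE 0.072, unadjusted p = 0.0175, adjusted p = 0.502, limma; exact permutation p = 0.0397), and the other 6 lay between -0.086 and 0.081. Neither passed over all features.

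The RET adaptors and effectors (21 tested of 23 listed) had a median of 0.0023, with 0 past the unadjusted threshold. The largest values were 0.19 for *Gab1*, a docking protein (SE 0.100), and -0.14 for *Dok6*, an adaptor that binds RET (SE 0.085). Of 6 transcription factors tested of 9 listed, 0 passed. *Etv4*, induced by GDNF in mouse motor neurons, had -0.14 (SE 0.15), and *Isl1*, a sensory neuron identity factor, had -0.11 (SE 0.088). Markers of non-peptidergic and large RET neurons (6 tested of 9 listed) lay between -0.12 and 0.015, with *Scn11a*, the sodium channel NaV1.9, at -0.12 (SE 0.074) and *P2ry1*, a purinergic receptor, at -0.066 (SE 0.068). Of the markers of peptidergic, GFRα3-bearing neurons (5 of 5 tested), 0 passed. Their values lay on both sides of 0 with a median of -0.072. *Trpa1*, the irritant receptor, was the lowest of them at -0.14 (SE 0.11). Adjusted p-values of these 7 genes were 0.613 or higher (limma).

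**Figure D5:**
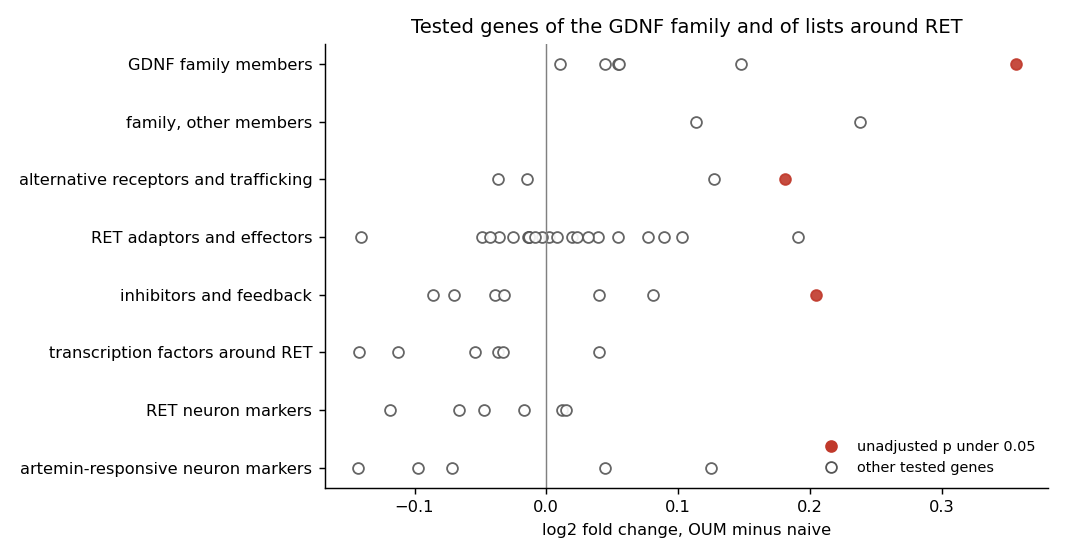
Log2 fold change, OUM minus naive (horizontal axis), of each tested gene of the GDNF family and of the lists around RET, with filled points for an unadjusted limma p under 0.05. *Artn* at 0.36 is the farthest from 0, and *Spry4* at 0.20 and *Sort1* at 0.18 are the other filled points.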

How the data were processed

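RNA from the TGs of 5 OUM and 5 naive rats was hybridized to single-colour Agilent arrays by the authors, 1 array per rat, and quantified with Agilent Feature Extraction 10.7.1.1. The deposited processed signal is a background-subtracted intensity. The authors' value table, a linear ratio made in GeneSpring GX (processed signal over a constant per array, column medians 0.115 to 0.123), served as an alternative. Control and outlier spots were left out, spots of a probe averaged, and the log2 of the deposited intensity was taken minus the log2 of the array's 75th percentile. Symbols came from a RefSeq gene table by accession (18438 of 30367 probes matched), with no gene coordinates, since the array annotation names another build. The brightest probe stood for its gene. Testing required that at least 0.5 of a feature's spots were well above background on each of the 5 arrays of a group. The p-values were adjusted over 19654 features with limma 3.58.1 in R 4.3.3, which was also tested on simulated data. Depth is not defined for arrays, and their number limits the precision. Nothing states that rats were litter-independent, so p-values measure the spread between these rats. Members, pathway and marker lists and alternatives were chosen with earlier results of these data known. Every member probe was named. Genes of the pathway lists were named at an unadjusted p under 0.05, otherwise the 2 with the largest absolute change, except 1 gene that is not reported here. For likeness, the 3 genes with the highest r to each member were named, and the 2 highest pairs and the lowest. Alternatives covered scaling, normalization, background (normexp with offset 50 on the median spot signal), filters, probe choice, outlier spots, slide, a replicate block, leaving out arrays and the methods' t-test. The slide difference and its interaction with OUM were fitted after seeing the data. Correlation p-values came from 100000 permutations.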

Additional observations from a re-analysis of the deposited data

Results flagged for a closer look

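Within-group values of the 12 member probes were screened for arrays far from the others of their group, over 24 sets of 5 arrays, where chance alone flags about 5% of sets. *Gdnf* read -8.79 on OUM 4, with the nearest OUM array at -8.11, and this gap was 0.809 of the group's range, although the probe was not well above background there. The third *Gfra2* probe read -3.10 on naive 4, with the nearest naive array at -3.61 and a gap of 0.742 of the range; naive 4 is the only naive array on slide 2.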

How the results depend on the processing

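The adjusted count of members stayed at 0 under all 27 alternatives. The unadjusted count, 1 in the text, was 2 with slide as a block (*Artn* and *Ret*) and 2 on slide 1 alone (*Ret* and *Gfra3*). In those fits the adjusted p of these members was 0.296 to 0.424 (limma). The share of all features under the unadjusted threshold was not counted there, so no rise particular to the members can be read from it. The count was 0 with the methods' t-test before and after Benjamini-Hochberg adjustment. It was 0 to 1 when 1 array was left out, being 0 without OUM 5. With the replicate number as a block the count was 0; numbers 1 to 5 gave correlations of same-numbered rats of -0.15 to 0.16, and only OUM 4 resembled its own number best, so the numbers were not taken as pairs. *Artn* kept its direction under 27 of 27 alternatives (0.24 to 0.56). Leaving aside slide 2 alone, which has 1 naive array, its unadjusted p was 0.00902 to 0.192 and its adjusted p 0.364 to 0.784 (limma or the methods' t-test). The unadjusted p was above 0.05 on slide 1 alone, with the replicate block, with the methods' t-test and without OUM 5. The other members turned negative under some settings. On slide 2 alone, *Ret* was -0.056, *Gfra3* -0.13, *Nrtn* -0.032 and *Gfra2* -0.0067, and on slide 1 alone *Gfra1* was -0.029. Without the 3 arrays highest in pituitary genes, *Ret* was -0.027, *Gfra3* -0.037, *Nrtn* -0.039, *Gfra2* -0.035 and *Gfra1* -0.0016. Those 3 arrays are all on slide 1, so this setting left OUM mostly on slide 2 and naive mostly on slide 1. Pituitary level and slide cannot be told apart in it. Leaving out 1 array gave -0.0091 to 0.12 for *Gfra3*, -0.016 to 0.14 for *Nrtn*, -0.0091 to 0.077 for *Gfra2* and -0.028 to 0.032 for *Gfra1*, and 0.054 to 0.23 for *Ret*. The cause was not tested. Signal near background limits *Gdnf* and *Gfra4*.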
